A study of Mus musculus with 12 samples.

Results

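The genes described here build and operate the primary cilium, a single antenna-like projection of the cell surface. They are 37 of the 55487 genes in the count table of this mouse study, taken by matching their Ensembl identifiers to a list of symbols that names the subunits of intraflagellar transport (IFT), the Bardet-Biedl syndrome (BBS) proteins, the GTPases Arl3 and Arl13b, the transition zone proteins and rootletin. By role they fall into 11 IFT-B genes, 6 IFT-A genes, 9 BBS genes, 2 ARL GTPase genes, 8 transition zone genes and 1 rootlet gene, Crocc.

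RNA was sequenced from primary bone marrow mesenchymal stromal cells (MSCs) of wild-type C57BL/6 mice in 3 groups of 4 samples. Control MSCs (labelled Negative) received no treatment, A1 MSCs received 50 μM of A1 for 6 h, and A1-OVA MSCs received 50 μM of A1 with 1 mg/mL of chicken egg albumin (OVA) for 6 h. A1 is a variant of Accum, a bile acid joined to a nuclear localization peptide that was designed to release cargo from endosomes, and the study asked what A1 does to the MSCs it turns into antigen-presenting cells. All groups were kept in AMEM with 10% serum and antibiotics, and the treatment label of the OVA condition also names insulin, with no amount. The MSCs came from the femurs of young female mice and were expanded to a uniform adherent population and stored at a late passage. The labels do not say whether the samples are separate cultures or animals, so the p-values below measure the spread between these samples, which may be technical. No group received OVA alone.

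A primary cilium grows from the mother centriole of cells that have left the cell cycle, and MSCs and other fibroblast-like cells carry one. Its proteins are made in the cell body and travel along its microtubules on IFT trains, outward with the IFT-B complex and kinesin-2 and back with the IFT-A complex and dynein-2. The BBSome rides these trains and takes membrane proteins out of the cilium, and the transition zone at its base acts as a gate. In mammals, hedgehog signaling passes through this organelle.

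Each sample had between 13702348 and 16881995 counts. Of the 37 genes, 35 were tested in 1 fit of 11314 protein-coding genes. Nphp4 failed the filter on low counts, and Tctn2 is not protein-coding in the annotation and was tested separately among all genes. Of the markers used to define MSCs, Pdgfra, Pdgfrb, Cxcl12 and Cd44 were abundant, while Thy1 (CD90) had 0 to 3 counts in 11 samples and 17 in 1 control sample, and Nt5e (CD73) had 7 to 14. The summed level of the 8 MSC markers was 4630 to 4850 CPM (counts scaled to the size of the library) in control and 2461 to 2669 CPM in the treated samples, and that of 8 hematopoietic markers was 1.68 to 3.02 CPM and that of 4 endothelial markers 0.153 to 0.916 CPM over all samples. Cxcl12 carried this drop, at 3910 ± 130.0 CPM in control and 1514 ± 63.6 CPM with A1 (SD, n = 4). The other 7 MSC markers summed to 821 to 881 CPM in control, 986 to 1017 CPM with A1 and 895 to 910 CPM with A1-OVA, with Cd44 higher and Pdgfra lower in the treated samples. The part of these differences in the results was not tested. In bulk samples, fewer cells with a cilium and less RNA per cell cannot be told apart.

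Genes for cilia are often read by some of the RFX transcription factors, which bind an imperfect inverted repeat called the X-box. The letters GTNNCC and GGNNAC separated by 1 to 3 bases, which read the same on both strands, were looked for in RefSeq promoter windows of 300 bases (250 before and 50 after the annotated start). A window was given for 33 of the 37 genes; Ift80, Ift81, Ift122 and Tmem67 had none. The letters were found in 11 of these 33 genes (33.3%), against 4% of all 27025 gene symbols with a window and 4.91% of the tested genes with one. They were in 5 of 7 transition zone genes, 3 of 9 BBS genes, 2 of 9 IFT-B genes and 1 of 5 IFT-A genes. The matches that lie before the RefSeq start are printed here because members of the IFT-B, IFT-A, BBS and transition zone groups share them. Each is read 5′ to 3′ on the strand of its gene, with the matching letters in capitals and the region in GRCm38.p6.

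Ift22, chr5:136908079-136908108, plus strand: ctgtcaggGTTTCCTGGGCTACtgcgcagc
Ift22, chr5:136908109-136908138, plus strand: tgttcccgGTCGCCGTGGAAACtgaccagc
Ift57, chr16:49699199-49699228, plus strand: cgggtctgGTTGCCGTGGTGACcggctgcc
Ift57, chr16:49699226-49699254, plus strand: gccctgcgGTTGCCTGGTAACggtgggga
Wdr19, chr5:65199654-65199683, plus strand: tttgcacgGTCTCCTGGGTGACgagaacgc
Bbs7, chr3:36613489-36613518, minus strand: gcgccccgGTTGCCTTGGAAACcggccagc
Tctn2, chr5:124598679-124598708, plus strand: gattggagGTTACCATGGCTACtggtcctc
Tctn3, chr19:40612351-40612379, minus strand: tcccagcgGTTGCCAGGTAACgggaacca
Nphp4, chr4:152477903-152477932, plus strand: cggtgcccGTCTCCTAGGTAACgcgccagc
Mks1, chr11:87853183-87853212, plus strand: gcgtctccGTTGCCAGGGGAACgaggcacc

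Ift22 and Ift57 each held a pair of matches, 63 and 33 bases before the start in Ift22 and 87 and 60 in Ift57. In Wdr19 the match began 34 bases before the start, in Mks1 24, in Tctn2 62, in Bbs7 121, in Tctn3 140 and in Nphp4 231. These distances are from the RefSeq start. GENCODE, which gives the gene coordinates used here, starts Ift57, Bbs7, Tctn3 and Nphp4 elsewhere. From its starts the Bbs7 match began 33 bases before, the Tctn3 match 138 and the first Ift57 match 26, and the second Ift57 match and the Nphp4 match lay after the start. Bbs1, Bbs4 and Tctn1 also matched, after the annotated start. Among the tested genes with a window they were in 5 of 18 that were lower with A1 (27.8%), in 4 of 11 that were not called (36.4%) and in neither Ift20 nor Bbs12, the 2 that were higher. The matches are letters in a window and say nothing of whether a factor was bound.

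In control MSCs the levels of the 37 genes, per length as CPM per kilobase of exon (FPKM), ran over a wide range. Ift74, Ift20 and Arl3 stood highest at 28.5 ± 1.60, 26.8 ± 1.36 and 25.7 ± 1.92 FPKM (mean ± SD, n = 4), and neighbours in this order did not differ beyond their SDs. Ift52 followed at 16.5 ± 0.594 FPKM and Ift43 at 15.1 ± 0.739 FPKM. The lowest detected genes were Bbs1 at 0.357 ± 0.0551 FPKM, Crocc at 0.713 ± 0.136 FPKM and Tctn1 at 0.977 ± 0.0737 FPKM. The remaining tested genes lay between these. Nphp4, whose protein is part of the transition zone, had 1 count in 1 control sample and 0 counts in the other 11 samples, so no difference was detectable at this depth.

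Most of the transport and transition zone genes were lower with A1. With A1, 22 of the 35 tested genes were lower than in control at an adjusted p under 0.05, where 31.1% of all tested genes were, and 2 were higher, where 31.7% of all tested genes were. The remaining 11 were not called. The median log2 fold change of the 35 genes was -0.40, and that of all tested genes was -0.0017. Of the 35 genes, 15 were called lower with a log2 fold change of -0.5 or less, as were 11.6% of all tested genes. Throughout, calls come from edgeR's quasi-likelihood test with Benjamini-Hochberg adjustment over the 11314 genes, and a fold change compares the named treatment with control unless A1 is named as the base.

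**Figure D1:**
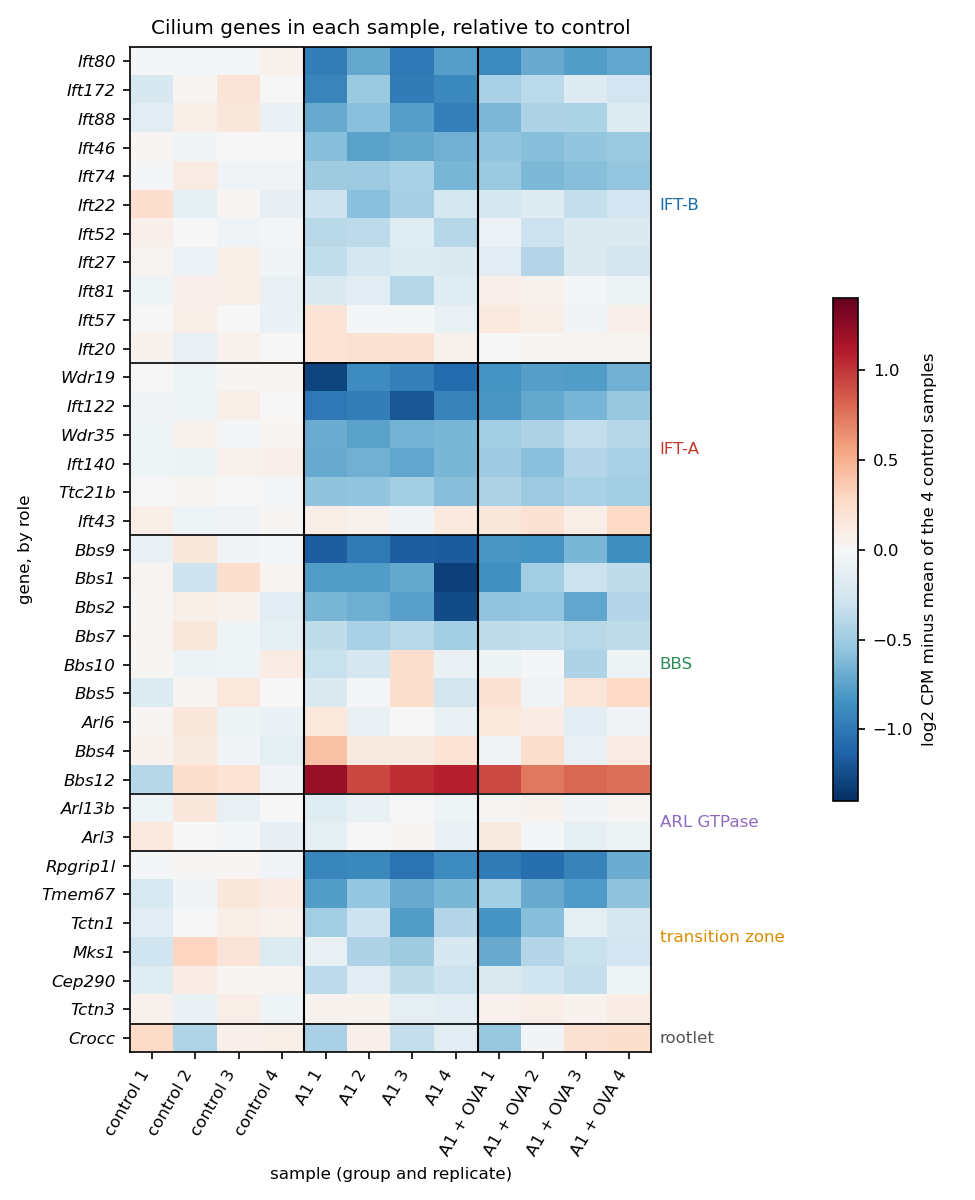
Level of the 35 tested cilium genes in each of the 12 samples, as log2 CPM minus the mean of the 4 control samples, with genes ordered by role and by their fold change with A1. Blue is below and red above control. Most IFT-A and IFT-B genes are blue in all 8 treated samples, and Bbs12 is red in all 8.

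By role, the count and size of the changes varied. Of the IFT-A genes 5 of 6 were lower, of the IFT-B genes 9 of 11, of the transition zone genes 4 of the 6 tested and of the BBS genes 4 of 9. Their median log2 fold changes were -0.69, -0.40, -0.42 and -0.09. Neither of the ARL GTPase genes was called, nor was Crocc. These role groups are small, and the differences between them were not tested.

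IFT-A, the complex that runs with dynein-2 toward the base and also admits membrane receptors to the cilium, showed the lowest median of the roles. Wdr19 (chr5:65199696-65260415, plus strand), whose promoter match was printed earlier, encodes one of its core subunits. Its level was 23.1, 22.2, 23.3 and 23.8 CPM in control, 9.40, 12.4, 11.8 and 10.9 CPM with A1, and 12.9, 13.5, 13.3 and 14.5 CPM with A1-OVA. All control samples were above all treated samples, and every A1-OVA sample was above every A1 sample. The log2 fold change was -1.05 ± 0.08 (SE) with A1 (edgeR adjusted p = 1.04e-10) and -0.77 ± 0.07 with A1-OVA (edgeR adjusted p = 8.49e-09).

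Ift122 (chr6:115853470-115926699, plus strand), another core subunit, followed the same order of groups. It stood at 29, 28.6, 31.7 and 29.9 CPM in control, at 14.8, 15.1, 12.9 and 15.5 CPM with A1 and at 16.8, 18.0, 18.9 and 20.6 CPM with A1-OVA, with no overlap between any of the groups. Its log2 fold change was -1.03 ± 0.07 with A1 (edgeR adjusted p = 6.32e-11) and -0.68 ± 0.07 with A1-OVA (edgeR adjusted p = 2.53e-08).

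Ift140 encodes a core subunit and Wdr35 a peripheral one. Wdr35 was 37.3, 40.0, 38.3 and 39.6 CPM in control, 23.9, 23, 24.4 and 24.8 CPM with A1 and 27.6, 28.8, 30.7 and 29.5 CPM with A1-OVA. Ift140 was 32.6, 32.4, 35.5 and 35.7 CPM in control, 20.9, 21.4, 20.5 and 21.8 CPM with A1 and 23.8, 22.6, 25.7 and 24.8 CPM with A1-OVA. In both genes the 3 groups were apart, with A1 lowest and A1-OVA between. The log2 fold change with A1 was -0.69 ± 0.05 for Wdr35 and -0.69 ± 0.06 for Ift140 (edgeR adjusted p = 3.15e-10 and 1.78e-09).

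The other peripheral IFT-A subunits, Ttc21b and Ift43, differed. Ttc21b fell by 0.55 on the log2 scale with A1, from 76.1 ± 0.907 to 52.0 ± 1.74 CPM (SD, n = 4). Ift43, the smallest subunit, was 24.9 ± 1.22 CPM in control and 26 ± 1.34 CPM with A1 and was not called (log2 fold change 0.07 ± 0.06, edgeR adjusted p = 0.369). With A1-OVA it was the only IFT gene higher than in control, at 28.3 ± 1.63 CPM, a log2 fold change of 0.19 ± 0.06 (edgeR adjusted p = 0.0115), although its lowest sample of 26.5 CPM did not clear the highest control sample and the call was lost without A1-OVA sample 4 (0.15, edgeR adjusted p = 0.0515).

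**Figure D2:**
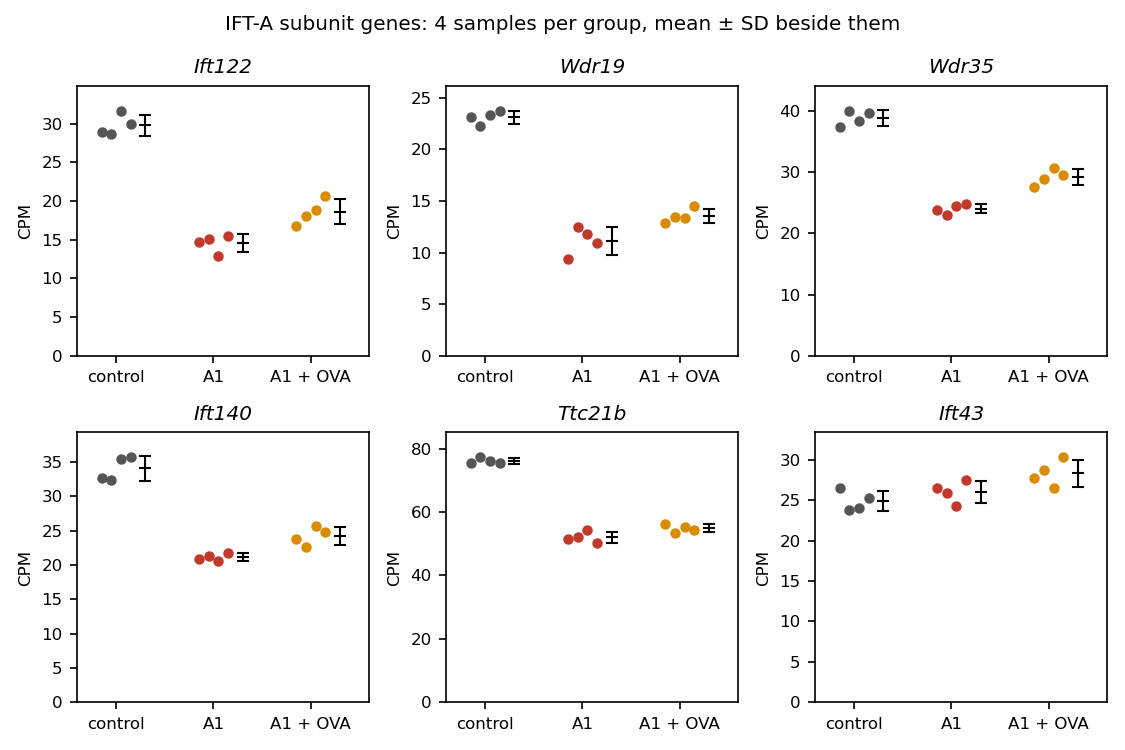
Level of the 6 IFT-A genes in CPM, with each of the 4 samples of a group as a point and the mean ± SD beside them. Ift122, Wdr19, Wdr35 and Ift140 show A1 lowest and A1-OVA between A1 and control, Ttc21b is low in both treated groups and Ift43 is not lowered.

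IFT-B, the complex of the outward trains, held the lowered genes Ift80, Ift172, Ift88, Ift46, Ift74, Ift22, Ift52, Ift27 and Ift81, with log2 fold changes from -0.86 to -0.23. Ift80 (chr3:68892499-69004570, minus strand) encodes a peripheral subunit that is mutated in a skeletal ciliopathy. It was 47.5, 47.1, 47.7 and 50.1 CPM in control, 24.5, 29.3, 23.9 and 28.2 CPM with A1 and 25.9, 29.4, 28 and 29 CPM with A1-OVA. Both treated groups lay well under control and overlapped each other. The log2 fold change was -0.86 ± 0.06 with A1 and -0.77 ± 0.06 with A1-OVA (edgeR adjusted p = 1.01e-10 and 4.26e-10).

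Ift172 (chr5:31253277-31291116, minus strand), the largest IFT-B subunit, which takes part in the turnaround at the ciliary tip, differed between the treatments. It was 21.2, 25.3, 28 and 24.8 CPM in control, 12.9, 17.2, 12.4 and 13.1 CPM with A1 and 18.0, 19, 21.9 and 20.5 CPM with A1-OVA. The A1 samples were under all others, while the highest A1-OVA sample reached above the lowest control sample. Its log2 fold change was -0.83 ± 0.10 with A1 (edgeR adjusted p = 1.97e-07) and -0.32 ± 0.09 with A1-OVA (edgeR adjusted p = 0.0047).

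Ift88, the core subunit whose hypomorphic mouse allele gives polycystic kidneys, was 15, 17.9, 18.6 and 15.7 CPM in control, 10.2, 11.1, 9.77 and 8.57 CPM with A1 and 10.8, 12.4, 12.3 and 14.6 CPM with A1-OVA. Control was above both treated groups, which overlapped. The log2 fold change with A1 was -0.76 ± 0.10 (edgeR adjusted p = 1.11e-06). Ift81, which with Ift74 carries tubulin, was 32.3, 35.2, 35.7 and 31.4 CPM in control, 29.1, 30.2, 25.3 and 29.8 CPM with A1 and 35.2, 34.8, 32.9 and 32.0 CPM with A1-OVA. Only the A1 samples stood apart, with a log2 fold change of -0.23 ± 0.06 (edgeR adjusted p = 0.00329), and A1-OVA was at the control level (0.0018 ± 0.06, edgeR adjusted p = 0.982). Its partner Ift74 instead fell by 0.53 with A1 and by 0.57 with A1-OVA.

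The other lowered IFT-B genes changed less or by similar amounts. Ift46 fell by 0.68 on the log2 scale with A1, Ift22 and Ift27, which encode small GTPase-like subunits, by 0.40 and 0.25, and the core subunit gene Ift52 by 0.33. Ift57, the other gene with a pair of promoter matches, was 35.3 ± 1.86 CPM in control and 35.7 ± 3.21 CPM with A1 (log2 fold change 0.01 ± 0.06, edgeR adjusted p = 0.853). Ift20, which links the trains to the Golgi, was the only IFT gene higher with A1. Its level was 42.1, 37.9, 42.4 and 40.9 CPM in control, 46.6, 47.5, 46.8 and 42.5 CPM with A1 and 41.0, 41.7, 41.9 and 41.9 CPM with A1-OVA. The lowest A1 sample was just above the highest control sample, and the log2 fold change was 0.17 ± 0.05 with A1 (edgeR adjusted p = 0.00722) and 0.03 ± 0.05 with A1-OVA (edgeR adjusted p = 0.655).

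The BBS genes held both the most lowered and the most raised of the 35. Bbs9 (chr9:22475715-22888280, plus strand), a core subunit of the BBSome, was 10.4, 12.4, 10.7 and 10.8 CPM in control, 4.92, 5.50, 4.88 and 4.87 CPM with A1 and 6.23, 6.14, 7.06 and 6.04 CPM with A1-OVA. The groups did not overlap, and A1 was lowest. On the log2 scale the change was -1.14 ± 0.10 with A1 (edgeR adjusted p = 1.59e-09) and -0.80 ± 0.09 with A1-OVA (edgeR adjusted p = 1.41e-07).

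Bbs12 (chr3:37312554-37321453, plus strand) encodes one of the chaperonin-like proteins that assemble the BBSome and moved the other way. It was 7.86, 12.4, 11.9 and 10.0 CPM in control, 24.3, 19.9, 21.4 and 22.2 CPM with A1 and 19.9, 17.4, 18.2 and 17.8 CPM with A1-OVA. Every treated sample was above every control sample. The fitted log2 change was 1.06 ± 0.10 with A1 (edgeR adjusted p = 1.03e-08) and 0.79 ± 0.10 with A1-OVA (edgeR adjusted p = 1.05e-06). Another annotated gene on the same strand shares 1.31% of its exon bases.

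Of the other BBSome subunits, Bbs1 fell by 0.95 and Bbs2 by 0.83 on the log2 scale with A1, Bbs7 by 0.43, and Bbs4 and Bbs5 were not called (0.22 ± 0.11 and -0.05 ± 0.11). Bbs1, the lowest of the 35 tested genes per length, was 2.74 ± 0.423 CPM in control and 1.42 ± 0.269 CPM with A1. Bbs10, which encodes another chaperonin-like protein, was 5.50 ± 0.346 CPM in control and 5.16 ± 0.891 CPM with A1, with no call. Arl6, the GTPase that brings the BBSome to membranes, was 20.4 ± 1.68 CPM in control and 20.2 ± 1.71 CPM with A1 (log2 fold change -0.01 ± 0.08, edgeR adjusted p = 0.885).

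The GTPases that release lipid-modified proteins inside the cilium showed little difference. Arl3 was 64.0 ± 4.79 CPM in control, 61.7 ± 2.95 CPM with A1 and 63.0 ± 4.91 CPM with A1-OVA. Arl13b, its activator and a common marker of the ciliary membrane, was 48.4 ± 4.0, 45.5 ± 2.25 and 48.7 ± 1.30 CPM. Their log2 fold changes with A1 were -0.05 ± 0.06 and -0.09 ± 0.06 (edgeR adjusted p = 0.437 and 0.180), so a change of the size seen in Wdr19 lay far outside these errors.

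Among the transition zone genes, Rpgrip1l (chr8:91217030-91313262, minus strand), which encodes a scaffold of the gate, changed most. It was 69.9, 71.7, 71.9 and 69.0 CPM in control, 37.4, 37.8, 34.5 and 38.4 CPM with A1 and 35.4, 33.9, 36.9 and 43.4 CPM with A1-OVA. The treated groups overlapped each other and lay far under control. Its log2 fold change was -0.93 ± 0.06 with A1 and -0.91 ± 0.06 with A1-OVA (edgeR adjusted p = 1.65e-11 and 1.96e-11).

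Tmem67 (chr4:12039355-12090020, minus strand), which encodes the membrane protein meckelin, was 7.43, 8.39, 9.65 and 9.28 CPM in control, 4.99, 5.88, 5.27 and 5.52 CPM with A1 and 6.16, 5.26, 4.95 and 5.79 CPM with A1-OVA. Control was above both treated groups. On the log2 scale this was a change of -0.68 ± 0.11 with A1 and -0.65 ± 0.11 with A1-OVA (edgeR adjusted p = 1.41e-05 and 2.00e-05).

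Cep290, which ties the ciliary membrane to the microtubules, fell by 0.30 on the log2 scale with A1 and by 0.22 with A1-OVA, with overlap between groups in both comparisons. The tectonic genes differed among themselves. Tctn1 fell by 0.50 with A1, Tctn3 was not called (-0.04 ± 0.09), and Tctn2, tested among all 12521 genes kept whatever their biotype, had a log2 fold change of -0.59 ± 0.10 with A1 (edgeR adjusted p = 5.52e-05) and -0.48 ± 0.10 with A1-OVA (edgeR adjusted p = 0.000416). Its counts, which are not scaled for depth, were 143, 137, 133 and 151 in control, 95, 72, 70 and 73 with A1 and 92, 92, 93 and 105 with A1-OVA, so that every treated sample was under every control sample. Mks1, whose product sits in the same gate complex, had a log2 fold change of -0.34 ± 0.15 with A1 (edgeR adjusted p = 0.059) and -0.44 ± 0.15 with A1-OVA (edgeR adjusted p = 0.0157). Neither side of the threshold was firm for Mks1. Its call with A1-OVA was lost without control sample 2 or 3 or A1-OVA sample 1 (edgeR adjusted p = 0.0769, 0.0524 and 0.0541), and a call with A1 was gained without control sample 1 or 4 or A1 sample 1 (edgeR adjusted p = 0.0201, 0.0355 and 0.0392). Crocc, which encodes rootletin, the fibre under the basal body, was 5.89 ± 1.13 CPM in control and 5.03 ± 0.837 CPM with A1, and no difference was detectable at this level.

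**Figure D3:**
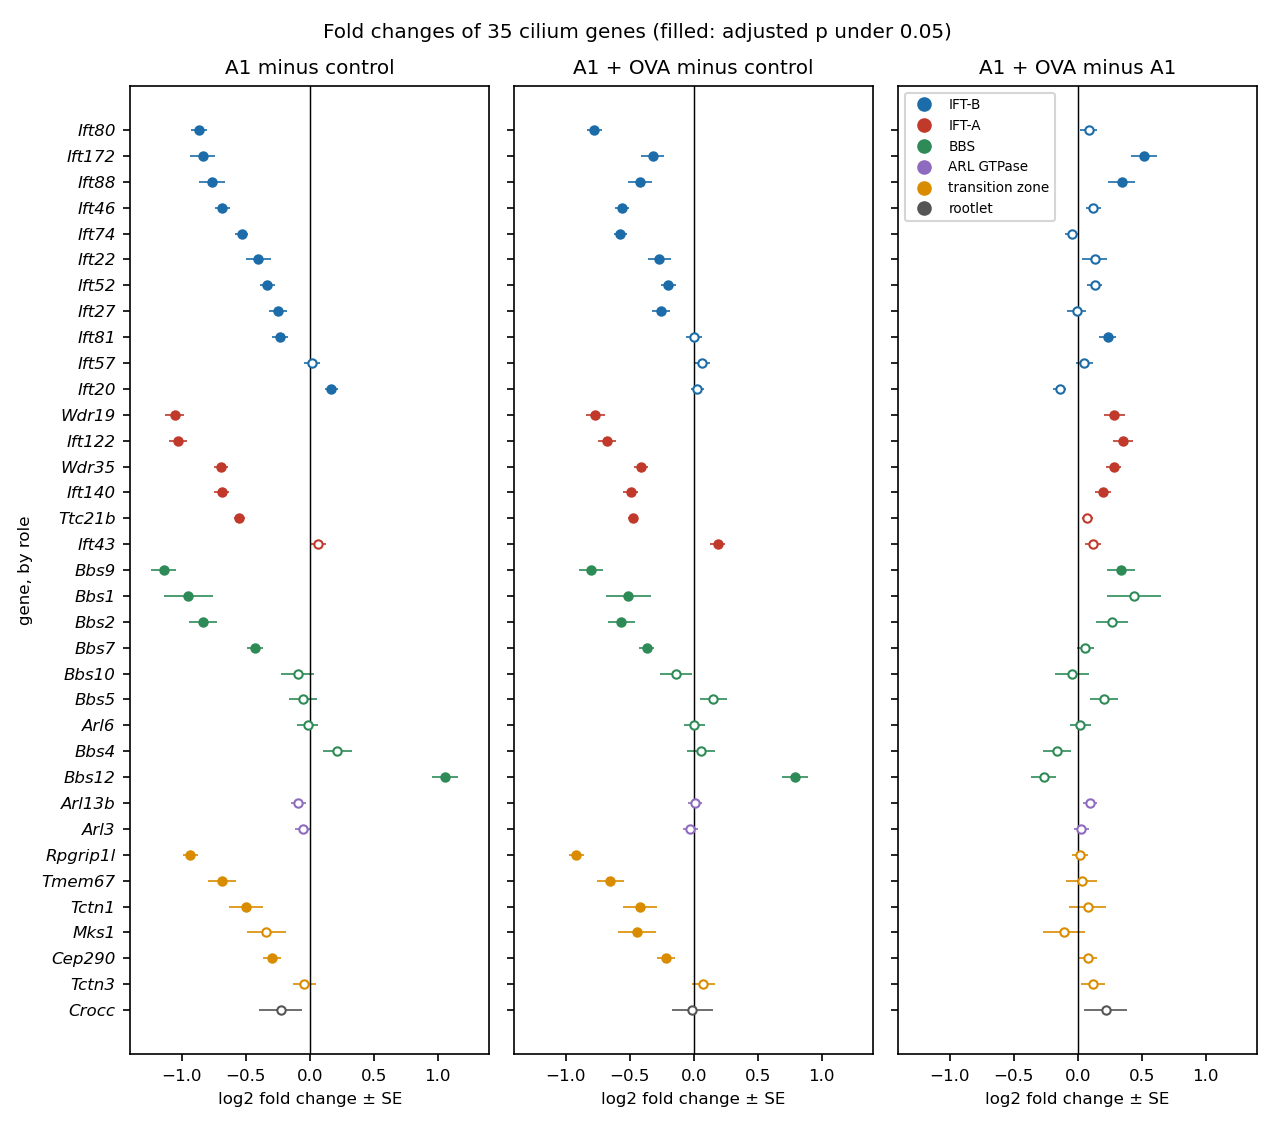
Log2 fold change ± SE of the 35 tested genes in the 3 comparisons, coloured by role, with filled points for an adjusted p under 0.05. The points lie left of 0 for most IFT, BBS and transition zone genes in the comparisons with control, and the 8 filled points between A1-OVA and A1 all lie right of 0.

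With A1-OVA, 22 of the 35 genes were lower than in control, where 27.9% of all tested genes were, and 2 were higher, Ift43 and Bbs12, where 29.7% of all tested genes were. The median log2 fold change was -0.32, against 0.0036 over all tested genes, and 10 of the genes reached -0.5 or less, against 8.79% of all tested genes. The roles had medians of -0.48 for IFT-A, -0.27 for IFT-B, -0.43 for the transition zone and -0.14 for BBS. Beside Mks1 and Ift43, the calls of Bbs1 and Ift22 with A1-OVA rested on single samples. Bbs1 lost its call without control sample 3 or A1-OVA sample 1 (edgeR adjusted p = 0.0659 and 0.0603), and Ift22 without control sample 1 (edgeR adjusted p = 0.0783). Both treated groups were compared with the same control samples, so the values stand side by side here and their likeness was not measured.

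The comparison of A1-OVA with A1 asks what the antigen adds to the compound. Here 8 of the 35 genes were higher with A1-OVA than with A1, where 6.05% of all tested genes were, and 0 were lower, where 6.81% of all tested genes were. Of the 8 genes 7 belong to IFT: Ift172, Ift88 and Ift81 of IFT-B and Ift122, Wdr19, Wdr35 and Ift140 of IFT-A. Bbs9 was the eighth. Their values per sample are given with their roles above. This comparison shares the A1 samples with that of A1 and control, so nothing is read from the standing of these genes in both. At an unadjusted edgeR p under 0.05, 2 genes were lower, Ift20 and Bbs12, and Ift52, Bbs1 and Bbs2 joined the higher genes. The shares of all tested genes at that threshold are not given here. By adjusted p, DESeq2 called 0 lower.

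The sizes were small. Ift172 was 0.51 ± 0.10 higher on the log2 scale with A1-OVA than with A1 (edgeR adjusted p = 0.00188), Ift122 was 0.35 ± 0.08 higher (edgeR adjusted p = 0.0045) and Wdr35 was 0.28 ± 0.06 higher (edgeR adjusted p = 0.00209). These 3 genes were called under all alternatives that kept the threshold and without each sample in turn. For Wdr19 the difference was 0.29 ± 0.08 (edgeR adjusted p = 0.027), for Ift140 0.20 ± 0.06 (edgeR adjusted p = 0.0414), for Ift81 0.23 ± 0.06 (edgeR adjusted p = 0.019), for Ift88 0.34 ± 0.11 (edgeR adjusted p = 0.0367) and for Bbs9 0.34 ± 0.11 (edgeR adjusted p = 0.0448). Each of these 5 lost its call when some single sample was left out, and with 1 sample fewer the count of 8 became 4 to 7. It was 4 without sample 1 or 4 of A1 or sample 4 of A1-OVA, and 5 without sample 3 of A1 or sample 2 or 3 of A1-OVA.

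In the transition zone, 0 of the 6 tested genes were called between A1-OVA and A1, and their median difference was 0.05, with Rpgrip1l at 0.02 ± 0.06. The median difference was 0.24 for IFT-A, 0.12 for IFT-B and 0.06 for BBS, against 0.0057 over all tested genes. Bbs12 was 0.27 ± 0.10 lower with A1-OVA than with A1 but missed the threshold (edgeR adjusted p = 0.0706).

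The genes differed in length as well as in fold change. Across the 35 genes, Spearman's rho between the log2 fold change with A1 and the summed exon length was -0.70, where across all 11314 tested genes it was -0.07. The 22 genes lower with A1 had a median exon length of 6945 bases, and the 11 that were not called had 3049. Against the genomic span rho was -0.45 over the 35 genes and -0.08 over all, and against the mean level it was 0.07 and 0.20. Genes are not independent replicates, the values come from the same libraries, and no test was made. Ift20 and Ift43, the shortest of the 35 at 1525 and 1651 exon bases, were among the few IFT genes that were not lower, while Cep290 with 11617 bases changed less than its length neighbours Wdr19 and Ift80.

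**Figure D4:**
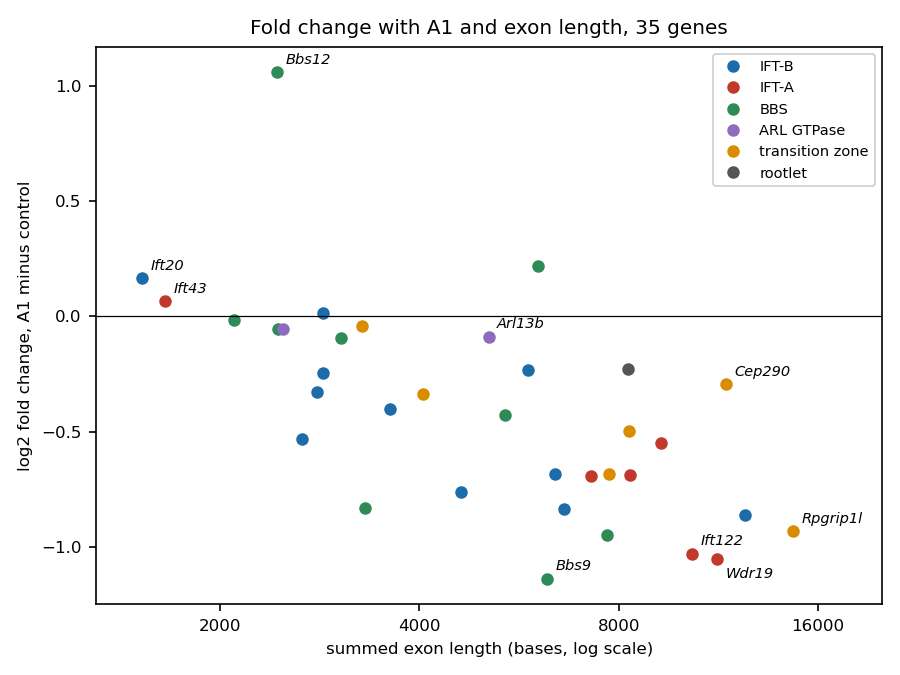
Log2 fold change with A1 against summed exon length (log scale) for the 35 tested genes, coloured by role. The longer genes lie mostly under -0.5, and the short genes scatter around 0, with Bbs12 far above at 1.06.

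The rest of the ciliary machinery was described from lists of 97 further genes, of which 81 were tested. With A1, 44 of the 81 were lower and 6 higher, where 31.1% and 31.7% of all tested genes were, and their median log2 fold change was -0.22. With A1-OVA, 38 were lower and 6 higher, where 27.9% and 29.7% of all tested genes were. Between A1-OVA and A1, 8 were higher and 3 lower, where 6.05% and 6.81% of all tested genes were. Of the 8 higher genes 4 were IFT motor genes. The counts of each list with A1 are to be read against the same 31.1% and 31.7%.

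Nearly all genes for the motors of the IFT trains were lower with A1. Of 9 tested motor genes 8 were lower with A1, with a median of -0.46. With A1-OVA, 4 of the 9 were higher than with A1, where 6.05% of all tested genes were. Dync2li1 and Dync2h1, the light intermediate and heavy chains of dynein-2, had log2 fold changes of -0.88 ± 0.09 and -0.69 ± 0.13 (edgeR adjusted p = 1.88e-08 and 7.57e-05), and Kif3a, a kinesin-2 motor subunit, had -0.56 ± 0.06 (edgeR adjusted p = 8.54e-08). Between A1-OVA and A1, Dync2li1 differed by 0.36 ± 0.09 (edgeR adjusted p = 0.0147) and Kif3a by 0.27 ± 0.06 (edgeR adjusted p = 0.00689).

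Of the 7 other IFT subunit genes tested 4 were lower with A1, led by Ttc30b (-0.84 ± 0.14), Ttc30a1 (-0.51 ± 0.13) and Ttc26 (-0.34 ± 0.09). Ttc30b and Ttc30a1 are near-identical copies whose reads the counting may have split, so their values are uncertain. Of the 5 other BBS genes 2 were lower, the BBSome subunit gene Ttc8 (-0.38 ± 0.09) and Trim32 (-0.27 ± 0.07). Of 16 further transition zone and inversin compartment genes 8 were lower and 0 higher, led by Cc2d2a (-0.76 ± 0.06), Tmem231 (-0.36 ± 0.09) and Tmem107 (-0.30 ± 0.12).

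Of 14 basal body and assembly genes 5 were lower and 3 higher, or 35.7% and 21.4%, near the 31.1% and 31.7% of all tested genes. Rab3ip, the exchange factor for Rab8 that starts membrane growth, was higher with a log2 fold change of 0.87 ± 0.06, as was the distal appendage gene Cep83 (0.31 ± 0.05), whereas Ttbk2, the kinase that starts ciliogenesis, was lower (-0.45 ± 0.07). Of 5 genes for the release of lipidated cargo, the partners of Arl3, Inpp5e (-0.41 ± 0.07), Pde6d (-0.38 ± 0.05) and Rp2 (-0.30 ± 0.06) were lower and Unc119 was higher (0.26 ± 0.08). Of 7 disassembly genes, Kif2a (0.36 ± 0.04) and Aurka (0.29 ± 0.06) were higher and Nedd9 (-0.61 ± 0.05) was lower. A list of 8 proliferation genes is given because cilia are lost in dividing cells. With A1, Mki67 was lower (-0.49 ± 0.10) and 4 were higher, where 31.1% and 31.7% of all tested genes were. Between A1-OVA and A1, 4 of these proliferation genes were lower, where 6.81% of all tested genes were. Their part in the cilium results was not tested.

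Genes of the hedgehog pathway, which signals through the cilium, were lower in 7 of 10 tested with A1, where 31.1% of all tested genes were, and in 8 of 10 with A1-OVA, where 27.9% were. Gli2, the main activating transcription factor, was 18.6, 21.4, 22 and 21.1 CPM in control, 7.30, 6.80, 5.42 and 5.81 CPM with A1 and 5.65, 5.64, 6.21 and 7.21 CPM with A1-OVA, a log2 fold change of -1.71 ± 0.10 with A1 (edgeR adjusted p = 1.78e-12). The treated groups overlapped each other and lay far under control. Gli1, a target gene of the pathway, had 38 to 60 counts in control and 13 to 21 with A1 (-1.24 ± 0.27, edgeR adjusted p = 0.000384), and the co-receptor gene Gas1 had -0.62 ± 0.04. Ptch1, the other standard target gene of the pathway, was 54.2 ± 1.16 CPM in control and 53.8 ± 1.23 CPM with A1 and was not called (log2 fold change -0.01 ± 0.05, edgeR adjusted p = 0.861). Ptch1 was chosen after its values were seen.

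Of the 5 tested RFX genes, Rfx5 (-0.67 ± 0.07), Rfx2 (-0.65 ± 0.16) and Rfx7 (-0.22 ± 0.05) were lower with A1. Rfx1 (0.03 ± 0.11) and Rfx3 (-0.33 ± 0.14) were not called with A1 (edgeR adjusted p = 0.830 and 0.0506). With A1-OVA, Rfx3 was lower (-0.38 ± 0.14, edgeR adjusted p = 0.0255). The list was not limited to RFX factors known to act on cilium genes, and which of them act on the described genes was not tested. Foxj1, the master gene of motile cilia, was too low to test. Of 12 motile cilium genes only Ccdc39 (-1.53 ± 0.31 with A1) and Dnaic2 (-1.01 ± 0.31) passed the filter on low counts. Both were near the floor, at 1.52 and 1.17 CPM in control and 0.521 and 0.582 CPM with A1. Dnaic2 overlapped between control and A1. Both may have passed only through the control samples, so nothing is read from their fold changes. The summed level of all 12 genes was 0.916 to 3.72 CPM in any sample. Crocc2, the paralogue of Crocc, was 4.70, 4.79, 4.27 and 5.71 CPM in control, 0.579, 0.382, 0.382 and 0.581 CPM with A1 and 0.870, 0.570, 0.462 and 0.493 CPM with A1-OVA. The control samples were far above all treated samples, with a log2 fold change of -3.31 ± 0.21 with A1 (edgeR adjusted p = 1.26e-11), while Crocc itself was not called. The treated samples of Crocc2 were near the floor, and it may have passed the filter only through control, so its fold change is uncertain.

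**Figure D5:**
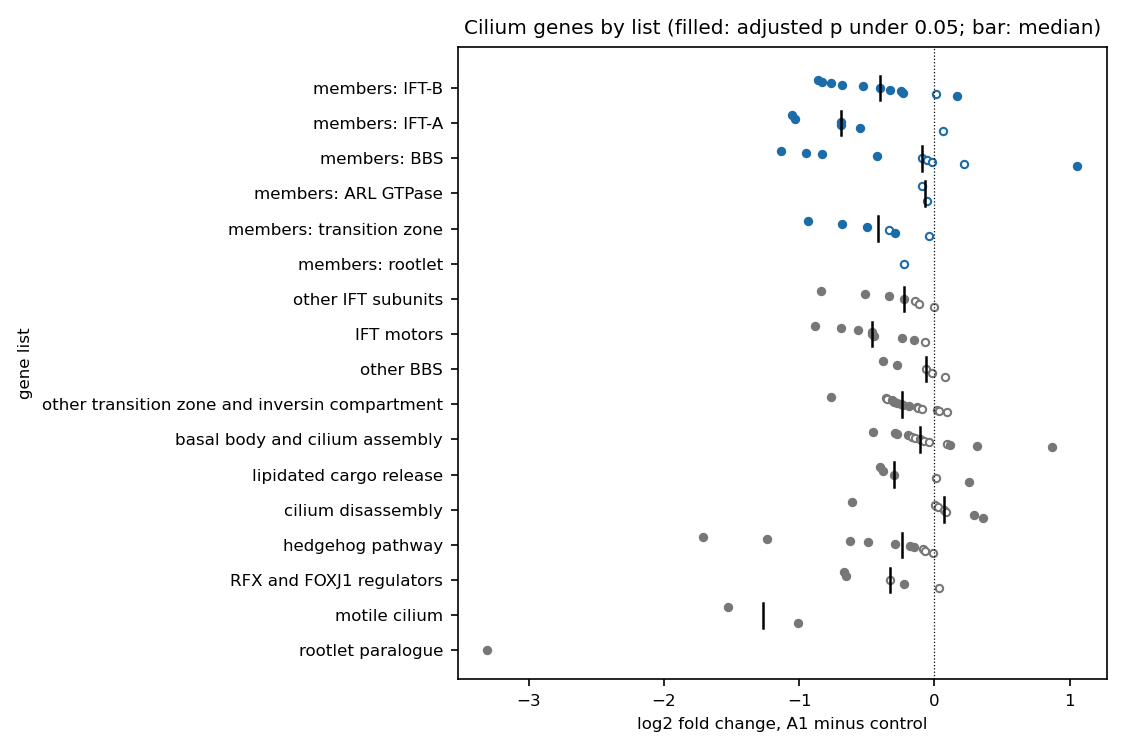
Log2 fold change with A1 of every tested gene of the described set (blue, by role) and of the further lists (grey), with filled points for an adjusted p under 0.05 and a bar at the median of each list. IFT-A, IFT-B and the transition zone of the described set, and the IFT motors, have medians from -0.69 to -0.40. The lists of other transition zone genes and other IFT subunits have medians of -0.24 and -0.22. Those of RFX regulators, lipidated cargo release and the hedgehog pathway are at -0.33, -0.30 and -0.24. Motile cilium is at -1.27, from 2 genes near the floor. Cilium disassembly is near 0, and Crocc2 and Gli2 are the lowest points.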

How the data were processed

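RNA was measured in 3 groups of 4 MSC samples (Negative, A1 and A1-OVA). The authors prepared stranded, polyA-selected libraries, aligned the reads to GRCm38 and deposited raw counts per gene, with no normalization. Per the submitters' processing notes the tools were bcl2fastq 2.20, STAR 2.7 and featureCounts 2.0. Each sample's group was read from its title, and the table's columns carry the same titles.

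Symbols, biotypes and coordinates came from GENCODE M21, which holds 99.5% of the identifiers. Promoter windows came from RefSeq (GRCm38.p6). Protein-coding genes that passed edgeR's filterByExpr entered 1 fit of all 12 samples with TMM scaling and no covariate, by edgeR's quasi-likelihood test (edgeR 4.0.16, limma 3.58.1, R 4.3.3). Benjamini-Hochberg adjustment covered all 11314 genes tested. CPM were computed with the TMM-scaled library sizes, and log2 CPM values use a prior count of 2. The procedure was tested on simulated data in which 100 genes changed by 0.5 and 100 by 1 on the log2 scale. Of these, edgeR recovered 85% and 95%. In the real data 7098 of the 11314 genes were called with A1, so the simulation does not cover a change this wide. DESeq2 1.42.0 and the other settings named in the closing section were alternatives.

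The genes and lists were chosen with earlier results of these data known. Values per sample are given, in each role, for the 2 genes with the largest absolute log2 fold change with A1 among those with an adjusted p under 0.05, for genes called between A1-OVA and A1, for genes higher with A1 and for those that failed the filter. Tctn2, not protein-coding in GENCODE M21 but protein-coding in RefSeq, was added to these after its values were seen. Of the further lists, up to 3 called genes with the largest change with A1 are named, and Crocc2. Unc119, the fourth called gene of its list, was named after its values were seen, as were Rfx1 and Rfx3, which were not called with A1. Replicates of a group differed by more than sampling noise, with a chi-square of 1.91 to 6.80 per degree of freedom. Other data types of the study were not used here. No OVA-only sample and no amino acid sequence was used here.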

Additional observations from a re-analysis of the deposited data

Results flagged for a closer look

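In 6 of 108 groups of 4 samples, 1 sample stood apart from the other 3 by Dixon's test, where chance alone marks about 1 in 20 groups. With A1, sample 3 was high in Ift52 (41.2 CPM, the others 35.1 to 36.0), sample 2 was high in Ift172 (17.2 CPM, the others 12.4 to 13.1) and in Bbs9 (5.50 CPM, the others 4.87 to 4.92), sample 4 was low in Bbs1 (1.02 CPM, the others 1.52 to 1.60) and sample 1 was high in Tctn2 (6.87 CPM, the others 5.30 to 5.50). With A1-OVA, sample 3 was low in Bbs10 (4.03 CPM, the others 5.22 to 5.45). In Ift52, Ift172, Bbs9 and Tctn2 the sample that stood apart was the A1 sample nearest to control, and in each of them all A1 samples stayed below all control samples.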

How the results depend on the processing

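With A1, 22 or 23 genes were lower and 2 higher without each sample in turn, with a median log2 fold change of -0.44 to -0.34. With A1-OVA, 20 to 22 were lower and 1 to 2 higher. Between A1-OVA and A1, 4 to 7 were higher and 0 to 1 lower. A log2 fold change of at least 0.5 was also required as an alternative. With A1, 15 genes were then lower, where 11.6% of all tested genes were, and 1 was higher. With A1-OVA, 10 were lower, where 8.79% of all tested genes were, and 1 was higher. Between A1-OVA and A1, 1 was higher. The shares of all tested genes that were higher at this threshold are not given here. Nothing is therefore read from the counts of higher genes. DESeq2 called 22 lower and 2 higher with A1, 21 and 2 with A1-OVA, and 6 higher and 0 lower between them. The shares of all genes called by DESeq2, with the replicate block or with a sample left out are not given here. The counts under those settings are therefore only set beside the counts of the main fit. Without the filter, and with only the groups compared, 1 gene was lower between A1-OVA and A1, Bbs12 in both cases (edgeR adjusted p = 0.0233 and 0.0228). Bbs9 lost its call between A1-OVA and A1 with DESeq2 (adjusted p = 0.120), all genes of the file (0.0535), no filter (0.0695) and the replicate block (0.0528), and Ift140 with DESeq2 (0.0912) and no filter (0.0623). With DESeq2, Bbs1 lost its call with A1-OVA (adjusted p = 0.0648), and with upper-quartile normalization Mks1 gained one with A1 (edgeR adjusted p = 0.0419). The calls of Mks1, Ift43, Bbs1 and Ift22 with A1-OVA rested on single samples, as given with their values. The causes were not tested. With the replicate block, 22 genes were lower and 2 higher with A1 and with A1-OVA, and 7 were higher between them. The deviations of same-numbered samples correlated by 0.02 on average (12 pairs, -0.13 to 0.16). Those of other samples correlated by -0.007 (36 pairs, -0.18 to 0.18). Such correlations over all tested genes cannot tell whether same-numbered samples share a culture or an animal, and the labels do not say. No gene called in the main fit reversed its direction under these settings. A change of sign in a gene that was not called was not counted. The sign of Ift57 with A1, for example, rested on A1 sample 1 at 40.3 CPM. The other A1 samples, at 34.7, 34.9 and 32.8 CPM, lay below the control mean of 35.3 CPM. Bbs1, Mks1, Bbs10 and Crocc had the fewest counts of the tested genes, which limits their precision, and Nphp4 could not be compared.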

Other observations

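The median level of each role was also taken within each sample. The median of the 6 IFT-A genes, as log2 CPM relative to the mean of the control samples, was -0.71 to -0.64 in the 4 A1 samples and -0.55 to -0.43 in the 4 A1-OVA samples, with no overlap between them. For the 11 IFT-B genes the medians were -0.51 to -0.39 and -0.38 to -0.20, apart only narrowly, with A1 sample 1 at -0.391 and A1-OVA sample 2 at -0.376. For the 6 tested transition zone genes they were -0.60 to -0.36 and -0.59 to -0.24, with overlap, and for the 9 BBS genes -0.31 to -0.01 and -0.30 to -0.05, with overlap. These are descriptions with no test.

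Ahi1, a transition zone gene outside the described set, was 29.9 ± 1.08 CPM in control, 24.3 ± 1.91 CPM with A1 and 32.9 ± 1.95 CPM with A1-OVA (SD, n = 4). It was lower with A1 than in control and higher with A1-OVA than with A1 by 0.44 ± 0.06 on the log2 scale (edgeR adjusted p = 0.000104), with no overlap between those groups. It was chosen after its values were seen.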
